A study of Homo sapiens with 6 samples.

Results

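Epithelial-mesenchymal transition (EMT) genes were followed in T24 cells, a cell line from a human urothelial carcinoma of the bladder. The 10 genes were taken from the table by name. They are the epithelial adhesion genes CDH1 and EPCAM, the mesenchymal genes CDH2, VIM and FN1, and the transcription factors SNAI1, SNAI2, ZEB1, ZEB2 and TWIST1. All 10 are among the 78932 genes of the deposited count table. Of these 10, 8 passed the filter on low values (a minimum of 10 counts in any 3 libraries of the 6), as did 18474 genes in all. CDH1 and EPCAM did not pass it.

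Poly(A) RNA was sequenced from 3 cultures transfected with the control siRNA siNC and 3 transfected with siRNA against TRIM28 (siTRIM28), a chromatin corepressor and SUMO ligase. The labels call them biological replicates and place all 6 in batch 1. All cultures are of a single cell line and each received an siRNA. Which TRIM28 siRNA these cultures received is not given in the sources used here. The comparison asks whether the EMT genes differed when TRIM28 was silenced.

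EMT is the change of a cell from an epithelial state, held to its neighbours by E-cadherin junctions, to a motile mesenchymal state rich in vimentin, fibronectin and N-cadherin. The SNAI, ZEB and TWIST factors drive it. SNAI and ZEB proteins bind E-boxes in promoters such as that of CDH1 and recruit corepressors, while microRNAs of the miR-200 family hold ZEB1 and ZEB2 down in epithelial cells, and ZEB1 and ZEB2 in turn repress the miR-200 genes. In bladder carcinoma, cell lines range from epithelial to mesenchymal.

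The sequences through which miR-200 meets ZEB1 and ZEB2 are shown first, because ZEB2 changed in these cultures and ZEB1 did not pass the test. The 5 mature microRNAs from RefSeq (GRCh38.p14) carry their seed, bases 2 to 8, in capitals. Those with the same seed stand together.
hsa-miR-200b-3p: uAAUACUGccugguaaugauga
hsa-miR-200c-3p: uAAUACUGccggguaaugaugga
hsa-miR-429: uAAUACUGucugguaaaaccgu
hsa-miR-141-3p: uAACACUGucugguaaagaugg
hsa-miR-200a-3p: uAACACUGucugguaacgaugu

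The longest 3′ UTR of ZEB1 in GENCODE v29 had 2549 bases and held 6 matches to the first seed (CAGTATT) and 3 to the second (CAGTGTT). That of ZEB2 had 5370 bases with 5 and 4 matches. Among 3′ UTRs of like length, 28.2% held at least 1 CAGTATT and 31.1% at least 1 CAGTGTT for the ZEB1 length, and 46.1% and 53.6% for the ZEB2 length. As many matches as in ZEB1 or more were held by 0.0572% and 0.801% of them, and as in ZEB2 by 0.112% and 1.23%. These shares include the gene itself. A match of letters is a description and not a measured site. Below, 1 match of each kind is given per gene with its flanks on the transcribed strand of GRCh38, the match in capitals.
ZEB1, chr10:31527622-31527651: ttttatcttatCAGTATTatcactcttatg
ZEB1, chr10:31528035-31528064: atcatcagaatCAGTGTTtgtgattgtgtt
ZEB2, chr2:144389041-144389070: ctaccatacatCAGTATTtttattattatt
ZEB2, chr2:144389225-144389254: aaaattttgtaCAGTGTTaaggcctaaaaa

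All 9 ZEB1 matches lie past the end of ZEB1 in the count table (31527294), so reads there were not counted for ZEB1. Mature microRNAs are not measured in poly(A) libraries. Of the host transcripts looked up, MIR200CHG, that of miR-200c and miR-141 on chromosome 12, had 1 count over the 6 libraries. MIR205HG, host of another microRNA that targets ZEB1 and ZEB2, had 0. No host transcript was looked up for miR-200a, miR-200b and miR-429, which lie on chromosome 1.

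TRIM28 itself fell from 103 ± 4.08 to 8.84 ± 0.656 CPM (counts scaled to library size with TMM factors, mean and SD of 3 libraries each), which is 8.55% of the siNC mean. Total counts per library lay between 11712623 and 14018052, and 3 counts, the floor used below, correspond to 0.214 to 0.253 CPM. The replicates were not equally close: siNC replicates 1 and 2 differed by a chi-square of 1.08 per degree of freedom and siTRIM28 replicates 2 and 3 by 1.24, against 4.44 to 6.96 for the other pairs of a group. siNC replicate 3 and siTRIM28 replicate 1 thus stood apart from the other libraries of their groups. A value of 1 is what counting error alone gives. Both close pairs differed by more than that (chi-square tests over genes, p = 3.02e-14 and 1.03e-98). Over so many genes even a small excess passes, and these tests cannot tell whether the cultures were independent. All 6 libraries were counted as separate replicates, as labelled. Of all genes tested, 41.8% had an adjusted p under 0.05 (quasi-likelihood test of edgeR, Benjamini-Hochberg adjusted), 21.3% higher and 20.5% lower in siTRIM28. The groups did not overlap in CPM in 52% of them. With the close libraries of each group summed, 5879 genes had an adjusted p under 0.05 in the same edgeR test, against 7721.

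Of the 8 tested EMT genes, 3 were called, all higher in siTRIM28. This share of 37.5% stands beside 41.8% for all genes tested and is no larger than that background. VIM rose by 0.33, ZEB2 by 0.36 and SNAI1 by 0.99 on the log2 scale. SNAI1 met the filter only with its siTRIM28 libraries, so its rise is no independent support for the direction of the calls. It also enters the count of groups without overlap and the median given next. CDH2, FN1, SNAI2, ZEB1 and TWIST1 did not pass the test. The groups did not overlap in 5 of the 8, with 4 higher and 1 lower, a share of 62.5% beside 52% of all genes. The median log2 fold change of the 8 was 0.33, against 0.015 for all genes tested. Leaving out siTRIM28 replicate 1 raised the number called to 5, with SNAI2 and ZEB1 added.

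**Figure D1:**
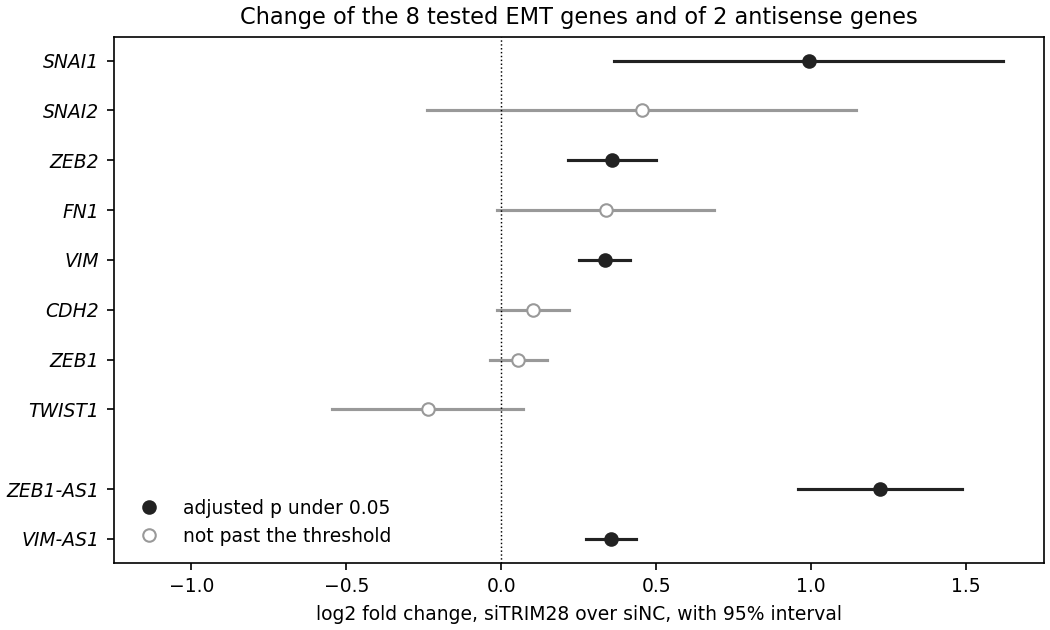
Log2 fold change of siTRIM28 over siNC (horizontal axis) with its 95% interval for the 8 tested EMT genes and for the antisense genes ZEB1-AS1 and VIM-AS1. Filled points have an adjusted p under 0.05 in edgeR's quasi-likelihood test. SNAI1, ZEB2 and VIM lie right of 0 with their intervals, and TWIST1 has the only negative estimate, at −0.24.

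The levels of the genes ran over a wide range. Per length (RPKM, mean ± SD over the 3 siNC libraries), VIM stood at 212 ± 2.30, ZEB1 at 48.0 ± 1.73, CDH2 at 6.72 ± 0.132, TWIST1 at 2.82 ± 0.139 and ZEB2 at 1.62 ± 0.0269. Lower were SNAI2 at 0.700 ± 0.232, SNAI1 at 0.417 ± 0.0764, FN1 at 0.316 ± 0.0303, EPCAM at 0.163 ± 0.0260 and CDH1 at 0.00788 ± 0.0136. The order of the means was the same in siTRIM28. In siNC the libraries of neighbours in this order did not overlap, but the counting intervals of SNAI2 and SNAI1 did, and those of SNAI1 and FN1. In siTRIM28 the libraries of SNAI2 and SNAI1 overlapped, and the counting intervals of TWIST1 and ZEB2 did too. VIM was at percentile 98.9 and ZEB1 at percentile 94.5 of RPKM among the genes tested, FN1 at percentile 8.71.

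These RPKM rest on the lengths in the count table, which sum all annotated exons: 26151 bases for ZEB2 and 17216 for FN1. With the longest protein-coding transcript of GENCODE v29 instead, an alternative chosen after seeing the data, the lengths were 9583 and 8905 bases. ZEB2 then stood at 4.41 RPKM in siNC, above TWIST1 at 3.38, and FN1 at 0.610, above SNAI1 at 0.422. The other ranks in siNC were the same.

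The epithelial genes were at or near the floor. CDH1 (ENSG00000039068, chromosome 16, 68737292 to 68833538), which encodes E-cadherin, had 2, 0 and 0 counts in siNC and 0, 0 and 1 in siTRIM28. Its 3 counts over all 6 libraries lie under the floor in each of them, so CDH1 was not detected and no fold is given. EPCAM (ENSG00000119888, chromosome 2, 47345158 to 47387601), a cell adhesion protein of the surface of epithelial cells, had 5, 5 and 6 counts in siNC and 2, 3 and 3 in siTRIM28. Every siTRIM28 library was lower than any siNC library, but siTRIM28 was at or under the floor. The ratio of the summed counts per total was 0.537, with a 95% counting interval of 0.199 to 1.33 that covers counting error only. A difference in EPCAM was not detectable at this depth, and without the filter its adjusted p was 0.512.

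The mesenchymal genes were led by VIM (ENSG00000026025, chromosome 10, 17228241 to 17237593), which encodes the intermediate filament vimentin. VIM had 1096, 1089 and 1112 CPM in siNC replicates 1 to 3 and 1322, 1405 and 1426 CPM in siTRIM28 replicates 1 to 3. Every siTRIM28 library was above every siNC library, and siTRIM28 replicate 1 was the lowest of its group. The log2 fold change was 0.33 (95% interval 0.25 to 0.41, adjusted p = 2.56e-05, edgeR's quasi-likelihood test), and the lowest library had 14228 VIM counts. In these bulk libraries more cells with VIM RNA and more VIM RNA per cell cannot be told apart. In size the change was at percentile 58.6 of absolute log2 fold change among the genes tested.

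CDH2 (ENSG00000170558, chromosome 18, 27932879 to 28177946) encodes N-cadherin, the cadherin of mesenchymal cells. It had 57.6, 56.6 and 58.9 CPM in siNC and 64.0, 61.6 and 60.0 CPM in siTRIM28. The groups did not overlap, yet the log2 fold change of 0.10 (95% interval −0.015 to 0.22) did not pass the test (adjusted p = 0.150, edgeR's quasi-likelihood test). FN1 (ENSG00000115414, chromosome 2, 215360440 to 215436073) encodes the matrix protein fibronectin and had 84, 72 and 65 counts in siNC and 116, 68 and 77 in siTRIM28. Its groups overlapped in CPM, and siTRIM28 replicate 1 was far above the rest at 8.26 CPM, where the other libraries lay between 5.08 and 6.48. The FN1 estimate of 0.34 had an interval of −0.013 to 0.69 and did not pass the test (adjusted p = 0.113, edgeR's quasi-likelihood test). Without siTRIM28 replicate 1 it was 0.17.

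Cadherin switching, the exchange of E-cadherin for N-cadherin, is usually read from the ratio of CDH2 to CDH1. The log2 ratio of CDH2 to CDH1 was 8.24 ± 0.554 in siNC and 8.45 ± 0.404 in siTRIM28 (SD over 3 libraries, prior count 2), a difference of 0.21 (two-sided exact permutation test, p = 0.5). For VIM to CDH1 the difference was 0.44 (two-sided exact permutation test, p = 0.3). Without siNC replicate 1 the CDH2 to CDH1 difference turned negative, at −0.11. With 3 libraries against 3 no p can lie under 0.1. Both ratios move with the 3 CDH1 counts and with the prior count, since CDH1 was not detected.

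Among the transcription factors, SNAI1 (ENSG00000124216, chromosome 20, 49982980 to 49988886) encodes Snail, a zinc finger repressor of CDH1. It had 12, 9 and 8 counts in siNC and 20, 20 and 14 in siTRIM28. With 9 and 8 counts in siNC replicates 2 and 3, SNAI1 met the filter only with its siTRIM28 libraries. Every siTRIM28 library was above every siNC library, at 1.18 to 1.68 CPM against 0.625 to 0.862. The log2 fold change was 0.99 (95% interval 0.36 to 1.62, adjusted p = 0.0155, edgeR's quasi-likelihood test), at percentile 93.8 of absolute change. The call was lost with DESeq2 (adjusted p = 0.0931) and without siNC replicate 2 (adjusted p = 0.0547), siNC replicate 3 (adjusted p = 0.0526) or siTRIM28 replicate 2 (adjusted p = 0.0557) in the edgeR test, so at this depth it is uncertain.

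SNAI2 (ENSG00000019549, chromosome 8, 48917598 to 48921740) encodes Slug, the paralog of Snail. Its counts were 44, 28 and 22 in siNC and 25, 47 and 47 in siTRIM28. The groups overlapped, because siNC replicate 1 was high and siTRIM28 replicate 1 was low. The estimate of 0.45 had a wide interval, −0.24 to 1.14, and did not pass the test (adjusted p = 0.280, edgeR's quasi-likelihood test). Without siTRIM28 replicate 1 it was 0.77 and passed (adjusted p = 0.0120, same edgeR test). The changes of SNAI1 and SNAI2 were not told apart: the log2 ratio of the pair differed by 0.44 between the groups (two-sided exact permutation test, p = 0.4, or 0.53 adjusted over 4 pairs of genes chosen after their values were seen).

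ZEB2 (ENSG00000169554, chromosome 2, 144364364 to 144521057) encodes a zinc finger and homeobox repressor of epithelial genes. It had 43.1, 41.9 and 41.8 CPM in siNC and 49.9, 56.4 and 56.3 CPM in siTRIM28. The lowest siTRIM28 library was above the highest siNC library, and replicate 1 was again the lowest. The log2 fold change was 0.36 (95% interval 0.22 to 0.50, adjusted p = 9.36e-04, edgeR's quasi-likelihood test).

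ZEB1 (ENSG00000148516, chromosome 10, 31318495 to 31527294), the paralog of ZEB2, was the second most abundant of the 10 genes per length. It had 399, 417 and 429 CPM in siNC and 417, 445 and 432 CPM in siTRIM28. The groups overlapped, and the change of 0.055 (95% interval −0.037 to 0.15) did not pass the test (adjusted p = 0.322, edgeR's quasi-likelihood test). Without siTRIM28 replicate 1 the change was 0.080 and just passed (adjusted p = 0.0487, same edgeR test). The upper bound of the ZEB1 interval, 0.15, lies under the lower bound of that of ZEB2, 0.22. The log2 ratio of ZEB2 to ZEB1 lay between −3.35 and −3.21 in siNC and between −3.06 and −2.94 in siTRIM28, without overlap. It differed by 0.30 (two-sided exact permutation test, p = 0.1, which is the lowest that 3 against 3 allow, or 0.20 adjusted over the same 4 pairs).

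TWIST1 (ENSG00000122691, chromosome 7, 19020991 to 19116924) encodes a basic helix-loop-helix factor. It had 80, 81 and 68 counts in siNC and 74, 55 and 52 in siTRIM28, which is 5.32 to 5.83 CPM against 4.38 to 5.27. It was the only tested gene of the 10 with every siTRIM28 library below every siNC library, by a small gap. The estimate of −0.24 (95% interval −0.55 to 0.070) did not pass the test (adjusted p = 0.201, edgeR's quasi-likelihood test).

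**Figure D2:**
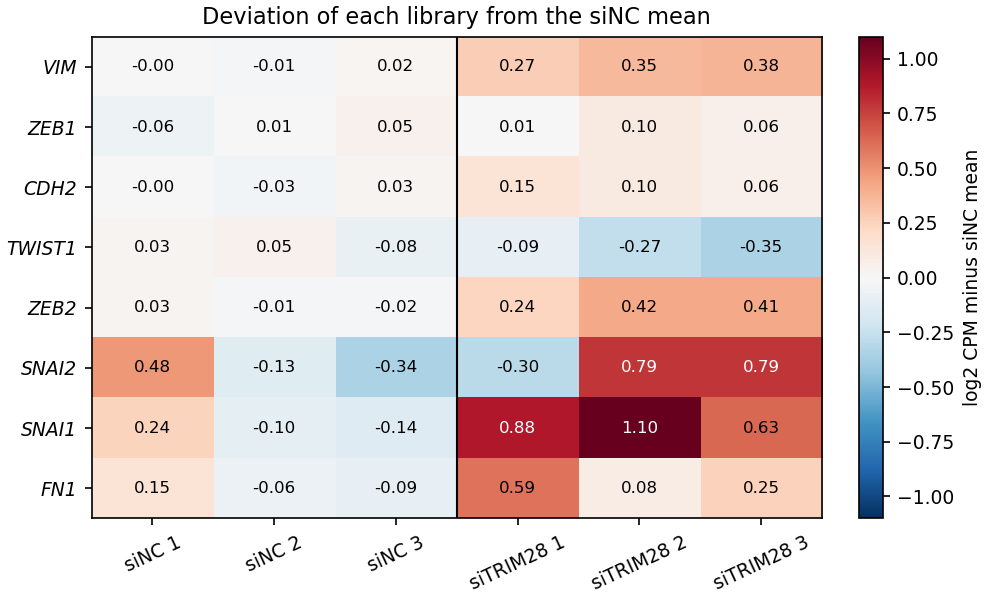
Log2 CPM of the 8 tested EMT genes in each library minus the mean of the 3 siNC libraries, from blue (lower) to red (higher), with the value in each cell. VIM and ZEB2 are higher in all 3 siTRIM28 columns, whereas SNAI2 is at −0.30 in siTRIM28 replicate 1 and 0.79 in replicates 2 and 3, and FN1 is highest in replicate 1 at 0.59.

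Several of the genes share their locus with annotated transcripts of the opposite strand. The library kit keeps the strand, but no source used here says whether reads were counted by strand, so reads of a gene and of its antisense partner cannot be told apart. ZEB1-AS1, a long noncoding RNA that starts next to ZEB1 on the opposite strand (ENSG00000237036, chromosome 10, 31204982 to 31320351, with 1857 bases shared with the span of ZEB1), had 98, 120 and 96 counts in siNC and 295, 193 and 197 in siTRIM28. The groups were far apart, with siTRIM28 replicate 1 the highest. The ZEB1-AS1 level rose from 7.73 ± 0.825 to 17.9 ± 2.65 CPM, or by 1.22 on the log2 scale (95% interval 0.96 to 1.49, adjusted p = 9.73e-06, edgeR's quasi-likelihood test). The log2 ratio of ZEB1-AS1 to ZEB1 was −5.72 ± 0.136 in siNC and −4.58 ± 0.248 in siTRIM28 and did not overlap. It differed by 1.14 (two-sided exact permutation test, p = 0.1, which is the lowest that 3 against 3 allow, or 0.20 adjusted over 4 pairs).

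RefSeq promoter windows of ZEB1 hold a start of both genes at 2 places. The first, with ZEB1 at 31319216 and ZEB1-AS1 at 31319095 on the opposite strand, is shown because of this difference and because it holds E2-boxes. It runs from 250 bases before to 50 after the ZEB1 start, with the E2-boxes CAGGTG and CACCTG, the letters that SNAI and ZEB zinc fingers bind, in capitals. They are read on the ZEB1 strand and are the reverse complements of each other.
ZEB1 and ZEB1-AS1, chr10:31318966-31319265, plus strand, GRCh38.p14: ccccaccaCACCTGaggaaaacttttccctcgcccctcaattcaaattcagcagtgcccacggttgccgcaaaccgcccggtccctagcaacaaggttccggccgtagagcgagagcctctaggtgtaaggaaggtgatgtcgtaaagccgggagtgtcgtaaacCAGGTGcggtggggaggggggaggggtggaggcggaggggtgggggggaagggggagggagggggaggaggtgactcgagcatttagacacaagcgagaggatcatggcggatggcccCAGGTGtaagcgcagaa

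The second, chr10:31320304-31320603, with ZEB1 at 31320554 and ZEB1-AS1 at 31320447, also holds the ZEB1-AS1 start of the count table (31320351) and has 0 E2-boxes. The first held 3, at −242, −85 and 33 from the ZEB1 start. Of 35116 RefSeq promoter windows of this length, 20.6% held at least 1 and 0.635% at least 3. The first window was picked for its E2-boxes and held the most of the 7 ZEB1 windows. These shares therefore do not measure how rare it is. Promoter windows matched 5 of the 10 genes. ZEB1 had 7, of which 2 held an E2-box, and the windows of CDH2, VIM, FN1 and ZEB2 held none. That says only that these letters are not in those windows.

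At VIM, the antisense gene VIM-AS1 rose from 291 ± 2.83 to 372 ± 6.11 CPM, by 0.35 on the log2 scale (adjusted p = 1.47e-05, edgeR's quasi-likelihood test). The antisense gene ENSG00000234961, inside VIM, rose from 466 ± 6.77 to 568 ± 17.3 CPM, by 0.28. VIM-AS1 kept step with VIM: their log2 ratio differed by 0.020 between the groups (two-sided exact permutation test, p = 1). ENSG00000227279, opposite the end of CDH2, had 17, 19 and 14 counts in siNC and 16, 6 and 17 in siTRIM28 and did not pass the test. The other transcripts that overlap the 10 genes did not pass the filter. ZEB2-AS1 among them had at most 3 counts in any library.

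The genes with the pattern most like that of each called gene were sought over the 6 libraries, by the root mean square difference of log2 CPM centred on siNC, among the genes with a mean of at least 50 counts. RBM6 (0.0111) and BLVRB (0.0169) were nearest to VIM. CD47 (0.0187) and CEP290 (0.0208) were nearest to ZEB2, and DGKI (0.0705) and HILPDA (0.0949) to SNAI1.

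The lists of related genes are read beside the 41.8% of all genes tested that were called, 21.3% higher and 20.5% lower. Calls in both directions are thus what the background shows too. Of 24 tested mesenchymal structural genes 15 were called (62.5%), 6 higher and 9 lower, with a median log2 fold change of −0.047. VIM, CDH2 and FN1 are in this list, and without them 5 of 21 were higher and 9 lower. NT5E, the ecto-enzyme CD73 of the cell surface, rose from 412 ± 5.79 to 574 ± 30.3 CPM (mean ± SD, n = 3). TGFBI, a matrix protein induced by TGF-beta, fell from 65.7 ± 1.43 to 29.3 ± 2.26 CPM (log2 fold change −1.17.) ENG, the TGF-beta coreceptor endoglin, changed by −0.74, and CD44, the hyaluronan receptor, fell from 715 ± 7.79 to 434 ± 3.46 CPM (log2 fold change −0.72.) The median of this list was positive, at 0.049, with at least 10 counts required in every library.

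Of 36 epithelial junction and polarity genes, 20 did not pass the filter, CDH1 and EPCAM among them. Of the 16 tested, 9 were called, 6 higher and 3 lower, with a median of 0.12. This is 56.25%, beside 41.8% of all genes. DSP, the desmosomal linker desmoplakin, rose from 7.42 ± 0.652 to 14.3 ± 0.891 CPM (log2 fold change 0.95.) F11R, the tight junction protein JAM-A, rose by 0.77, and the polarity gene PARD6B by 0.68. CTNND1, the p120 catenin that holds cadherins at the membrane, fell from 152 ± 0.222 to 102 ± 2.55 CPM (log2 fold change −0.59.) TJP1 (ZO-1) at −0.19 and SCRIB, a polarity protein, at −0.17 also passed as lower. The calls of PARD6B, TJP1 and SCRIB were lost in some alternatives, PARD6B for example without siTRIM28 replicate 3 (0.40). The number called was 5 with DESeq2 and 4 with the close libraries summed or without siNC replicate 1.

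Of 13 regulators of the epithelial state 7 did not pass the filter, the ZEB1 antagonists OVOL1 and GRHL2 and the splicing regulators ESRP1 and ESRP2 among them. Of the 6 tested, 2 were called, both higher, or 33.3% beside 41.8% of all genes. OVOL2 passed the filter, at 3.05 ± 0.0318 CPM in siNC and 4.04 ± 1.43 in siTRIM28, with overlapping groups. Its log2 fold change of 0.42 did not pass the test (adjusted p = 0.170, edgeR's quasi-likelihood test). KLF4, a zinc finger factor of epithelial cells, rose from 3.48 ± 0.709 to 7.76 ± 0.863 CPM (log2 fold change 1.15.) GRHL1, a grainyhead factor, was called at 0.39, but not with DESeq2 (adjusted p = 0.202) or without any single library in the edgeR test.

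Beyond the 5 factors above, 13 other EMT transcription factors were tested, with 3 higher and 3 lower. HMGA2, a chromatin protein that induces SNAI1, rose from 48.7 ± 1.51 to 102 ± 7.31 CPM (log2 fold change 1.07.) SOX9 rose by 0.35. LEF1, a partner of beta-catenin, fell from 10.9 ± 0.707 to 4.89 ± 0.0858 CPM (log2 fold change −1.15), while TCF3 (E2A) changed by −0.45 and SOX4 by −0.41. The call of SOX9 was lost with the close libraries summed (adjusted p = 0.0686) and that of SOX4 with DESeq2 (adjusted p = 0.0590). SOX4 also lost its call without siNC replicate 1 or 3, or siTRIM28 replicate 1 or 2 (adjusted p = 0.0657 to 0.0886, edgeR test). With SNAI1, SNAI2, ZEB1, ZEB2 and TWIST1 included, 8 of 18 were called (44.4%, beside 41.8% of all genes) and the median was 0.13. PRRX1, TWIST2 and SNAI3 did not pass the filter.

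The partners of the SNAI and ZEB proteins were all expressed. Of 12 corepressors 7 were called (58.3%, beside 41.8% of all genes), 4 higher and 3 lower, with a median of 0.056. The Polycomb subunits EZH2 and SUZ12, which methylate histone H3, rose by 0.47 and 0.43, and the demethylase KDM1A (LSD1) by 0.21, with overlapping groups. CTBP1, the corepressor that ZEB1 binds, changed by −0.38, LIMD1, a LIM protein that binds SNAI, by −0.19 and HDAC2, a histone deacetylase, by −0.16. Of 12 genes that act on the stability of SNAI proteins 8 were called (66.7%, beside the same 41.8%), 4 in each direction, with a median of 0.043. USP37, a deubiquitinase, rose by 0.66, the ubiquitin ligase subunit FBXL14 by 0.32 and the kinase CSNK1A1 by 0.25. The deubiquitinase USP27X changed by −0.49, the kinase PRKD1 by −0.48 and GSK3B, the kinase that marks Snail for degradation, by −0.23. With the close libraries summed the calls of KDM1A, LIMD1, CSNK1A1, USP27X and GSK3B were lost. In that setting the numbers called were 4 corepressors and 3 stability genes. The calls of LIMD1 and USP27X were also lost with DESeq2 (adjusted p = 0.0969 and 0.153). Those of KDM1A, LIMD1 and USP27X were lost without any of several single libraries as well. FBXL14 lost its call without siNC replicate 1 (adjusted p = 0.0568, edgeR test). RNA levels do not measure the stability of the proteins.

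The extreme points of that plot are CNN1 (−2.46), FOXQ1 (1.78) and JUP (1.26), named after their values were seen, with means under 20 counts. Each met the filter only with the libraries of its higher group, which favours such points. Each is also counted in the list numbers above.

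Other cadherins were few. CDH1 and CDH2 belong to the 9 cadherins listed, of which 3 were tested and 1 was called (33.3%, beside 41.8% of all genes). CDH2, as given above, and CDH11 (log2 fold change −0.18, adjusted p = 0.638, edgeR's quasi-likelihood test) did not pass the test. CDH4, the retinal cadherin, was called, and fell from 12.7 ± 0.253 to 9.27 ± 0.668 CPM (log2 fold change −0.45.)

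The cell type markers showed which cells the libraries hold. Of 12 urothelial and carcinoma keratin markers 5 were tested and 3 were called (60%, beside 41.8% of all genes). All 3 were higher, and 21.3% of all genes were called as higher. KRT18 (85.8 ± 3.90 CPM in siNC, log2 fold change 0.084) and TP63 (0.468 ± 0.179 CPM in siNC, log2 fold change 1.01) did not pass the test. The simple keratin KRT8 was plainly expressed, at 103 ± 0.603 CPM in siNC and 114 ± 5.37 in siTRIM28, a log2 fold change of 0.14, a call that DESeq2 and other alternatives lost. KRT7 was called at 0.56 (not with DESeq2), and UPK1A, a uroplakin of the urothelial surface, rose from 0.871 ± 0.489 to 3.40 ± 0.656 CPM. The uroplakins UPK1B, UPK2 and UPK3A, with KRT5, KRT19, KRT20 and GATA3, did not pass the filter, so most defining markers of normal urothelium were absent or near the floor. The summed level of this list was 191 to 197 CPM in siNC and 211 to 219 CPM in siTRIM28. Of 6 fibroblast markers 2 were tested and 1 was called (50%, beside 41.8% of all genes). PDGFRA did not pass the test, at 1.26 ± 0.240 CPM in siNC and 1.15 ± 0.247 in siTRIM28 (log2 fold change −0.14). COL1A1, a fibrillar collagen chain, rose from 0.929 ± 0.265 to 3.27 ± 0.633 CPM, and the list sum ran from 2.16 to 3.45 CPM in siNC and from 3.84 to 5.39 CPM in siTRIM28. UPK1A, TP63 and COL1A1 met the filter only with their siTRIM28 libraries. The calls of UPK1A and COL1A1 are thus no independent support for the direction of their lists. DCN, LUM and COL1A2 had a mean of under 1 count. PDGFRB did not pass the filter, at 0.468 CPM in siNC and 0.268 in siTRIM28. None of 5 endothelial markers passed the filter, with sums of 0.432 to 0.574 and 0.997 to 1.35 CPM. Of 5 leukocyte markers only CD68, a lysosomal protein, passed it and did not pass the test, at sums of 344 to 349 and 337 to 360 CPM, while PTPRC and CD3E were at or near 0. The part of these shifts in the changes of VIM, ZEB2 and SNAI1 was not tested.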

How the data were processed

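RNA-seq of 3 siNC and 3 siTRIM28 T24 cultures was used. Raw read counts of each gene were deposited by the authors. The submitters' processing notes name fastp 0.23.1, STAR 2.7.6a, featureCounts and GRCh38; the annotation release and the strand setting are not given in the sources used here. A deposited table of differential genes holds RPKM of the authors' selection and was not used.

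Groups and replicate numbers were taken from the labels. The quasi-likelihood test of edgeR 4.0.16 (R 4.3.3) was run with TMM factors, full column totals as library sizes and the siRNA as sole term. Genes needed 10 counts or more in any 3 libraries, with Benjamini-Hochberg adjustment over all 18474 genes and a threshold of 0.05. Intervals are 95% and come from the F statistic. Replicate error is SD over 3 libraries, and intervals and floors of low counts cover counting error only. RPKM are CPM per kilobase of the table's gene length. Ratios per library used log2 CPM with a prior count of 2 and exact two-sided permutation.

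The 10 genes and the lists were chosen with earlier results of these data known. Besides these genes and TRIM28, up to 3 rises and 3 falls per list are named (adjusted p under 0.05, mean of at least 20 counts), with the cell type markers, overlapping genes and the 2 nearest patterns. Not every gene that this rule picks is reported here by name. Genes that did not pass the filter and are named with their lists, OVOL2, CDH11 and the gene pairs were chosen after their values were seen. The replicate numbers did not pair the cultures: deviations of same-numbered libraries correlated at 0.07, −0.02 and 0.05 over 12828 genes.

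Alternatives were scaling by RLE, upper quartile or total counts, the tests of DESeq2 1.42.0, limma-voom (limma 3.58.1), other filters, the replicate block, close libraries summed and each library left out. Sequences come from RefSeq tables (GRCh38.p14) and GENCODE v29 on GRCh38; seed matches used the longest 3′ UTR of each tested gene, set beside 1748 and 894 UTRs of like length.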

Additional observations from a re-analysis of the deposited data

How the results depend on the processing

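The calls of VIM and ZEB2 and the fall of TRIM28 held in every alternative run. SNAI1 was 1.00 with DESeq2 (adjusted p = 0.0931) and 0.86 to 1.15 with each library left out. It did not pass the filter of at least 10 counts in every library. Leaving out each library gave SNAI2 from 0.27 to 0.77, ZEB1 from 0.025 to 0.080, and 2 to 5 members called. The junction genes called were 5 with DESeq2, 4 with close libraries summed and 4 to 9 with each library left out. The epithelial regulators called were 1 with DESeq2, no filter, the replicate block or close libraries summed, and 1 to 2 with each library left out. Close libraries summed gave 4 corepressors and 3 stability genes called, and leaving out each library gave 4 to 8 corepressors. The medians ran, with each library left out, from −0.069 to 0.045 for the mesenchymal genes, from 0.016 to 0.070 for the corepressors and from −0.010 to 0.071 for the stability genes. The median was 0.049 for the mesenchymal genes with at least 10 counts in every library and 0.090 for the corepressors with upper-quartile scaling. The CDH2 to CDH1 difference ran from −0.11 (without siNC replicate 1) to 0.44, and ENSG00000227279 from −0.54 to 0.041 (without siTRIM28 replicate 2). The cause was not tested. With the longest coding transcript as length, siNC RPKM were 515 for VIM, 66.2 for ZEB1, 13.3 for CDH2, 4.41 for ZEB2, 3.38 for TWIST1, 0.947 for SNAI2, 0.610 for FN1 and 0.23 for EPCAM, higher because these lengths are shorter. The ZEB1 3′ UTR of GENCODE v29 reaches past the end of ZEB1 in the count table. Its counts and this length may thus not cover the same bases, and 66.2 may be too low.

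The replicate block, with numbers that do not pair the cultures, gave 3 members called (VIM 0.33, ZEB2 0.36, SNAI1 0.99) and 7913 of all genes, against 7721. Over all genes DESeq2 called 5878 and close libraries summed 5879. Depth limits CDH1, EPCAM and SNAI1, SNAI2 and FN1 moved most without siTRIM28 replicate 1, and 3 libraries a group limit every permutation test. Of the values under alternatives, 875 were within the limits set for their kind, 72 lost a call, 2 gained one, 31 moved and 2 reversed.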
